A study of Mus musculus with 22 samples.

Results

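The genes described here are 10 transcription factors that mark regions of the developing gut and its derived organs: Pdx1, Nkx2-1, Nkx2-3, Pax8, Pax9, Onecut1, Onecut2, Prox1, Mnx1 and Barx1. They were taken by gene symbol, and each matched exactly 1 of the 55049 genes found in all the count tables. Their expression was followed by poly-A RNA-seq in 22 libraries of mouse embryonic stem (mES) cells and of cultures grown from them, in 10 groups. The series asks what becomes of stem cell based embryo models that lack all Hox function.

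The undifferentiated groups are wild-type mES cells (2 libraries) and Hox-/- mES cells (2 libraries), kept in medium with LIF, the GSK-3 inhibitor CHIR99021 and the MEK inhibitor PD0325901. The endoderm cultures, flat cultures given 100 ng/ml Activin A with 3 μM CHIR99021 at 24 h and at 72 h and collected at 120 h, are wild type (3 libraries) or Hox-/- (3 libraries). The gastruloids, which are aggregates of mES cells that elongate in culture, fall into 6 groups of 2 libraries: Activin A gastruloids of wild type and of Hox-/- at 96 h and at 120 h, and wild-type Chiron gastruloids at 96 h and at 120 h. The name Chiron is as in the labels, which give no gastruloid doses. Every Hox-/- library carries the name BADC in its title. No label gives the number of clones behind each genotype, and line and genotype therefore cannot be told apart. Nor is it stated whether replicates are separate cultures, so p-values measure only the spread between these libraries. The cultures are labelled as mixed cells. In such bulk samples fewer cells of a type and less RNA per cell cannot be told apart.

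The gut tube begins as a sheet of endoderm that is patterned from front to back by signals from the neighbouring mesoderm, and the factors studied here are switched on in stretches of it as organs are set aside. Pax9 is a paired-box factor of the pharyngeal pouches and also of the sclerotome, Pax8 and Nkx2-1 act in the thyroid (Nkx2-1 also in the lung, Pax8 also in the kidney), and Barx1 and Nkx2-3 act in the mesoderm around the stomach and intestine. Onecut1, Onecut2 and Prox1 act in liver and pancreas, Pdx1 in pancreas and duodenum, and Mnx1 in the early pancreas as well as in notochord and motor neurons. Several of them are thus not particular to endoderm. Hox genes encode homeodomain factors that give cells a position along the same axis.

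Upstream sequences were available from RefSeq (build GRCm38.p6) for 9 of the 10 genes. The 250 bases before the annotated start are shown for Pax9 and Nkx2-3, the tested genes with the widest separation between genotypes at 120 h, and for Mnx1, whose separation was present at 96 h and not at 120 h. The stretches are chr12:56695221-56695470 on the plus strand for Pax9, chr19:43612075-43612324 on the plus strand for Nkx2-3, and chr5:29478471-29478720 on the minus strand for Mnx1. Capitals mark matches to the motifs searched on both strands.
Pax9: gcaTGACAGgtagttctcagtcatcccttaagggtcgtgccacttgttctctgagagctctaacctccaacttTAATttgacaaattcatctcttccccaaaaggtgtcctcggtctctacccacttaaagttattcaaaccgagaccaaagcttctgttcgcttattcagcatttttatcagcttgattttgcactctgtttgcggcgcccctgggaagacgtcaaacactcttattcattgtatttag
Nkx2-3: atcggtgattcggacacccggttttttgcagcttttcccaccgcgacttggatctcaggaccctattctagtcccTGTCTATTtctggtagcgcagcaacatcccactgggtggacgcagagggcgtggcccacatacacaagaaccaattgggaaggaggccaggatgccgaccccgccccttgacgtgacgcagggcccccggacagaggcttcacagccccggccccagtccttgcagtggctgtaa
Mnx1: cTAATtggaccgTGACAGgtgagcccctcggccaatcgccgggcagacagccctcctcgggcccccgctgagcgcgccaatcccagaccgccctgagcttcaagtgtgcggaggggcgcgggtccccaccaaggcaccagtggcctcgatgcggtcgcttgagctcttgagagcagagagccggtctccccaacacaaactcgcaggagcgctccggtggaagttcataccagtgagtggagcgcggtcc
The capitals in Pax9 are the MEIS core TGACAG, at position -247 counted from the start, and the short homeodomain core TAAT, at position -177. Mnx1 holds the same pair of motifs, TAAT at position -249 and TGACAG at position -238. Nkx2-3 holds neither, and its capitals are the reverse complement of the FOXH1 core AATNNACA at position -175. TAAT is in 58.3% of the 27025 mouse promoters of the same table, TGACAG in 19.3% and AATNNACA in 12.3%, each counted over 300 bases that include the 50 after the start. Pax9's stretch lies within an intron of a longer GENCODE transcript of Pax9 that starts further upstream. Its G and C content is 43.6%, against 60% for Nkx2-3 and 66.4% for Mnx1. The Cdx and posterior Hox core TTTATG, the Hox and Pbx composite TGATTNAT, the forkhead core TGTTTAC, the GATA core AGATAA and the Gli core TGGGTGGTC had no match in any of the 9 genes. A match here is a run of letters, not a binding site.

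Totals per library ran from 9108085 to 28819301 counts, and 3 counts, used here as a floor, correspond to 0.104 to 0.329 CPM (counts-per-million of the library total). Replicates spread more widely than counting error alone allows (chi-square over its degrees of freedom between 1.397 and 11.3). Depth and time go together, since the 120 h gastruloid libraries (at most 11930416 counts) are all shallower than those at 96 h (at least 14953662). The deleted genes were checked as the summed CPM of 39 Hox genes, which in Hox-/- groups was 2.71% to 16.04% of that in the matching wild type. Endodermal markers were present in the cultures: the summed level of 14 shared endoderm factors was 489.6 ± 25.2 CPM (SD, n = 3) in wild-type endoderm cultures and 32.1 ± 1.03 CPM (SD, n = 2) in wild-type mES cells.

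The 10 genes were expressed at low levels, and their summed level was highest in wild-type Activin gastruloids at 120 h. Compared per transcript length, the deposited FPKM values peaked at a group mean of 8.28 for Mnx1 (Chiron, 96 h), 2.73 for Pax9 (Chiron, 120 h), 2.22 for Prox1 (wild-type Activin, 96 h) and 1.10 for Barx1 (wild-type Activin, 120 h). The highest group means of the other genes were 0.811 FPKM for Nkx2-3, 0.627 for Pax8, 0.526 for Onecut2, 0.242 for Onecut1, 0.186 for Pdx1 and 0.0528 for Nkx2-1. The summed FPKM of all 10 was 12.4 ± 1.51 (SD, n = 2) in wild-type Activin gastruloids at 120 h, where 9 of the 10 genes exceeded 3 counts in a library. It was 7.42 ± 0.253 in Hox-/- Activin gastruloids at 120 h and 7.73 ± 0.598 in Chiron gastruloids at 120 h, with 5 of 10 genes above the floor in each. Chiron gastruloids at 96 h had 10.6 ± 0.858, most of it Mnx1, with 8 of 10 above the floor. In wild-type and Hox-/- mES cells it was 0.478 ± 0.0747 and 0.468 ± 0.0526, with 3 of 10 above the floor.

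**Figure D1:**
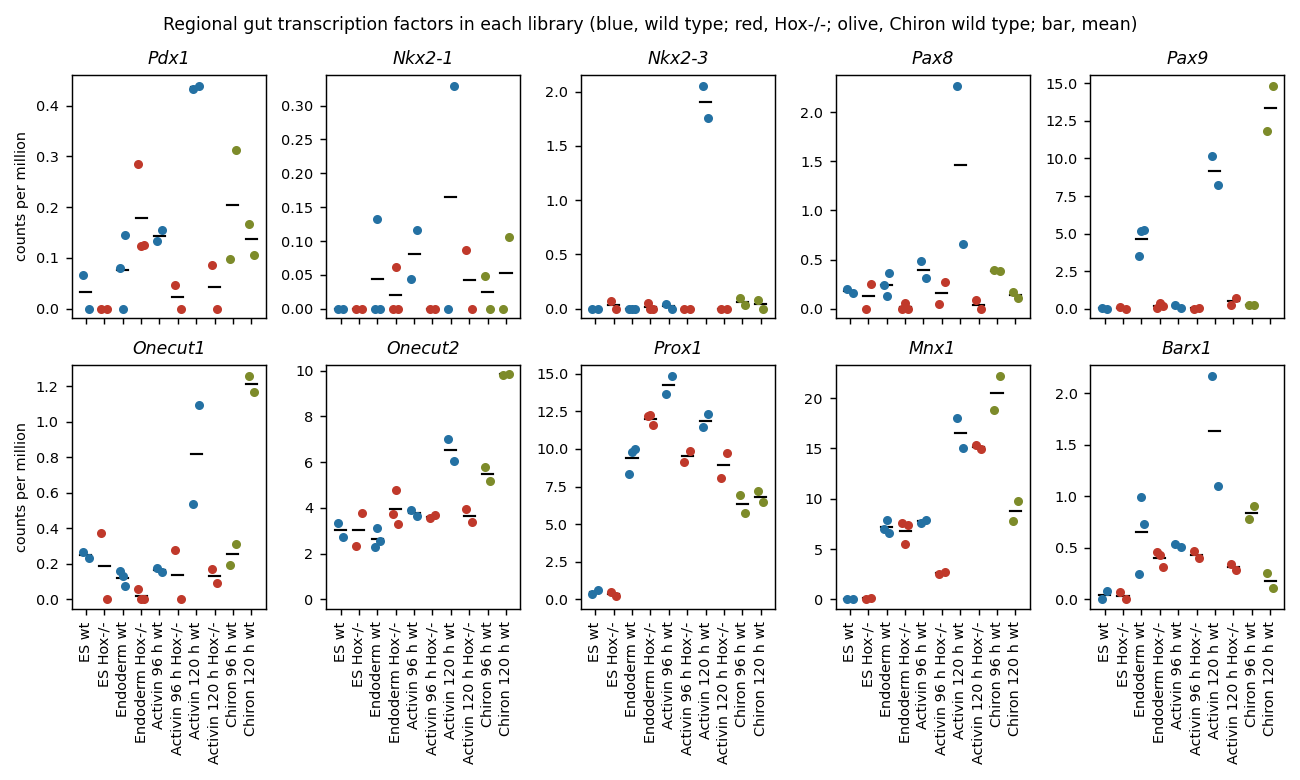
CPM (counts-per-million, linear y axis, a scale for each gene) of the 10 genes in each of the 22 libraries by group (x axis); points are libraries and the bar is the group mean. Nkx2-3, Pax8 and Barx1 peak in wild-type Activin gastruloids at 120 h, Pax9 is at most 0.748 in every Hox-/- library, and Mnx1 stands higher at 120 h than at 96 h in Activin but lower in Chiron gastruloids.

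Pax9 (ENSMUSG00000001497, chr12:56691767-56712822, plus strand) had the widest separation between genotypes in the endoderm cultures. Wild-type endoderm cultures had 3.49, 5.14 and 5.25 CPM and Hox-/- endoderm cultures 0.0568, 0.369 and 0.189 CPM. The groups did not overlap: 193 counts against 10 in all. The fitted log2 change was -4.47 (SE 0.37). By pooled counts Pax9 was 23.3-fold lower in Hox-/- (95% exact interval 12.4 to 49.4, counting error only). Pax9 passed the filter on low counts only through wild type, where it is high, so no p-value is given for this difference. Without the Hox-/- replicate 2, the highest of its group, the log2 change was -5.18.

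In Activin gastruloids Pax9 was scarce at 96 h in both genotypes, at 0.222 and 0.0388 CPM in wild type against 0 and 0.0669 CPM in Hox-/-. At 120 h it was 10.2 and 8.23 CPM in wild type against 0.259 and 0.748 CPM in Hox-/-. The difference at 120 h was -4.09 on the log2 scale (SE 0.35), and leaving out Hox-/- replicate 2 gave -4.998, leaving out replicate 1 gave -3.49. In the Activin fit Pax9 passed the filter on low counts only through wild type at 120 h, so tests that use that group are descriptions. No p-value is given for that difference or for the rise in wild type. Pax9 rose from 96 h to 120 h by a log2 change of 6.05 (SE 0.37) in wild type, or 5.24 and 7.52 without either 96 h library in turn. In Hox-/- it rose by 3.81 (SE 1.06, edgeR adjusted p = 0.00134), from 1 count to 11, a call that was lost without Hox-/- replicate 2 at 120 h (adjusted p = 0.0832). That value ran from 2.72 to 6.01 as each of the 4 Hox-/- libraries was left out. The difference between the genotype effects at the 2 times was -2.23 (SE 2.27, edgeR adjusted p = 0.471), and from -3.73 to -0.03 as each library was left out. With 7 counts in all at 96 h it was not called on counts. It passed on both FPKM scales, but there the added 1 or 0.1 exceeded every 96 h value (at most 0.0504 FPKM). That holds the 96 h effect small, so the pass restates the difference at 120 h.

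Chiron gastruloids had the highest Pax9 of the 10 groups at 120 h. They rose from 0.243 and 0.243 CPM at 96 h to 11.8 and 14.8 CPM at 120 h (log2 change 5.62, SE 0.29, edgeR adjusted p = 6.06e-14). At 120 h Activin was below Chiron (log2 change -0.57, SE 0.18, edgeR adjusted p = 0.0140), a call lost without Activin replicate 2 (adjusted p = 0.164), without Chiron replicate 2 and with DESeq2 (adjusted p = 0.104). Its group order was Chiron 120 h, wild-type Activin 120 h, wild-type endoderm and Hox-/- Activin 120 h, each with no overlap with the next; below these, neighbouring groups overlapped.

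Since Pax9 also marks sclerotome, the sclerotome and somite markers are given beside it. Their summed level at 120 h was 1063 ± 40.4 CPM in Chiron, 623 ± 6.15 in wild-type Activin and 913 ± 4.53 in Hox-/- Activin gastruloids (SD, n = 2 each). In Hox-/- against wild type at 120 h, 6 of the 10 tested were called higher and 2 lower, where 24.9% of all genes tested were higher and 25.5% lower. Pax1, a close relative of Pax9 in sclerotome and pharynx, averaged 35.8 ± 1.23 CPM in Chiron, 1.47 ± 0.523 in wild-type Activin and 0.0431 ± 0.0610 in Hox-/- Activin gastruloids at 120 h, and 0.1004 ± 0.0537 in wild-type endoderm cultures (n = 3). The summed level of 13 gut epithelium genes, which include Epcam, Cdh1 and keratins, was 79.6 ± 1.71 CPM in Chiron, 1033 ± 6.23 in wild-type Activin and 60.95 ± 1.95 in Hox-/- Activin gastruloids at 120 h. In the endoderm cultures that sum was 1385 ± 17.2 CPM in wild type and 856 ± 47.0 in Hox-/- (n = 3 each). Their part in the Pax9 values was not tested.

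Nkx2-1 (ENSMUSG00000001496, chr12:56531958-56536908, minus strand), the thyroid and lung factor, is the neighbour of Pax9 on chromosome 12, 154.9 kb away, and was not detected above the floor in any of the 10 groups. It had 13 counts over all 22 libraries, 3 of them in wild-type Activin replicate 2 at 120 h. It was left out of every test. Of the genes starting within 1 Mb of Pax9, 8 were tested in Hox-/- against wild type in endoderm cultures, with 3 called lower and 0 higher, where 23.1% of all genes tested were called lower. In Activin gastruloids at 120 h, 4 of the 8 were lower and 1 higher, where 25.5% of all genes were lower. With 8 genes these shares are descriptions.

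Pax8 (ENSMUSG00000026976, chr2:24420560-24475599, minus strand), the thyroid and kidney factor, was highest in wild-type Activin gastruloids at 120 h. There it had 2.27 and 0.659 CPM, or 21 and 6 counts, against 0.0862 and 0 CPM, 1 count in all, in Hox-/-. The libraries did not overlap, but too few libraries of the Activin table held it for the test, and the ratio of pooled counts was 32.8 (95% exact interval 5.40 to 1342). In the endoderm cultures it had 10 counts in wild type and 1 in Hox-/-, a ratio of 12.1 (1.72 to 524). Against Chiron at 120 h (0.168 and 0.106 CPM) it was called higher, by a log2 change of 3.27 (SE 0.75). Pax8 entered that fit only through wild-type Activin at 120 h, where it is high. The call therefore gives no support, and its p-value is left out. That call rested on wild-type Activin replicate 1: without it the log2 change was 2.13 (adjusted p = 0.110), and without replicate 2 it was 3.90. Of 10 intermediate mesoderm markers, a tissue that also uses Pax8, 6 were called higher and 2 lower in Activin than in Chiron gastruloids at 120 h. Over all genes tested, 20.3% were higher and 21.6% lower. The markers summed to 569 ± 9.98 CPM in Activin and 370 ± 14.5 CPM in Chiron. In Hox-/- Activin gastruloids at 120 h that sum was 628 ± 12.2 CPM.

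Nkx2-3 (ENSMUSG00000044220, chr19:43612325-43615892, plus strand), a homeodomain factor of the gut mesoderm and pharynx, was confined among these libraries to 1 group above the floor. Wild-type Activin gastruloids at 120 h had 2.05 and 1.76 CPM, or 19 and 16 counts. The 4 Hox-/- Activin libraries had 0 counts each, and no library of the remaining groups had more than 2. At 120 h it was at least 14.2-fold lower in Hox-/-, setting the 35 counts of wild type against a floor of 3 counts over the pooled Hox-/- group. Nkx2-3 entered the tests only through the group where it is high, so it had to differ there, and no p-value is given for it. Against Chiron at 120 h the counts were 35 and 1 (ratio 40.7, 95% exact interval 6.84 to 1654), with a log2 change of 4.33 or 7.99 without either Chiron library in turn. Against wild-type Activin at 96 h they were 35 and 1 (ratio 92.1, 15.5 to 3740), with a log2 change of 5.09 or 7.72 without either 96 h library in turn.

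Barx1 (ENSMUSG00000021381, chr13:48662998-48666507, plus strand), the stomach mesenchyme factor, also peaked in wild-type Activin gastruloids at 120 h, with 2.16 and 1.10 CPM. In Hox-/- it was 0.345 and 0.281 CPM. The groups did not overlap, and the log2 change was -2.24 (SE 0.55). Without wild-type replicate 1, the higher library, it was -1.67. Barx1 passed the filter on low counts of the Activin fit only through wild type at 120 h, where it is high. Tests that use that group are therefore descriptions, and p-values of those calls are left out. At 96 h the genotypes were close, with 0.533 and 0.504 CPM in wild type against 0.468 and 0.401 CPM in Hox-/- (log2 change -0.18, approximate 95% interval -1.12 to 0.76). The genotype effect was called more negative at 120 h than at 96 h by 2.06 on the log2 scale (difference -2.06, SE 0.77). That call was lost without any of 6 of the 8 libraries in turn, with adjusted p up to 0.218, and with DESeq2 (0.193).

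The fitted changes of Barx1 with time had opposite signs under the 2 treatments. In Chiron at 120 h Barx1 was at the floor, with 3 and 1 counts in libraries shallower than those at 96 h. In wild-type Activin it rose by a log2 change of 1.57 (SE 0.42), a call that was lost without replicate 1 at 120 h and with DESeq2 (adjusted p = 0.0623). In Chiron it fell from 0.779 and 0.902 CPM to 0.251 and 0.106 CPM (log2 change -2.24, SE 0.62, edgeR adjusted p = 0.00341), or by a log2 change of -3.04 without Chiron replicate 1 at 120 h. Activin exceeded Chiron at 120 h by 3.02 (SE 0.62, edgeR adjusted p = 3.87e-04), and by 3.81 without Chiron replicate 1. Beside these values, the summed level of 10 gut mesenchyme genes at 120 h was 134 ± 1.99 CPM in wild-type Activin, 190 ± 2.43 in Hox-/- Activin and 96.9 ± 4.43 in Chiron gastruloids. Within that list Foxf1, a factor of the splanchnic mesoderm, rose in Hox-/- (31.8 ± 0.451 CPM there and 14.97 ± 0.990 CPM in wild type), whereas Hand2 fell (0.0431 ± 0.0610 CPM and 2.01 ± 0.517 CPM). Nkx3-2, another stomach mesenchyme factor, was at the floor in both.

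Mnx1 (ENSMUSG00000001566, chr5:29473034-29478470, minus strand), a homeodomain factor of early pancreas, notochord and motor neurons, had the highest FPKM of the 10 genes. At 96 h wild-type Activin gastruloids had 7.60 and 7.91 CPM and Hox-/- 2.57 and 2.74 CPM, with no overlap (log2 change -1.50, SE 0.16, edgeR adjusted p = 4.75e-11). At 120 h the values met: 18.1 and 15.04 CPM in wild type against 15.3 and 14.96 CPM in Hox-/-. The log2 change at 120 h was -0.02, with an approximate 95% interval of -0.26 to 0.23. The genotype effects at the 2 times differed by 1.48 (SE 0.21, edgeR adjusted p = 5.67e-08).

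Both genotypes of Activin gastruloids raised Mnx1 with time, wild type by a log2 change of 1.02 (SE 0.12, edgeR adjusted p = 4.30e-10) and Hox-/- by 2.50 (SE 0.16, edgeR adjusted p = 1.33e-19). In Chiron gastruloids it fell from 18.8 and 22.2 CPM to 7.80 and 9.75 CPM (log2 change -1.35, SE 0.13, edgeR adjusted p = 4.52e-09). Activin was thus below Chiron at 96 h (log2 change -1.47, SE 0.11, edgeR adjusted p = 5.09e-11) and above it at 120 h (0.88, SE 0.15, edgeR adjusted p = 5.80e-05). In endoderm cultures the genotypes overlapped, with 6.98, 7.91 and 6.57 CPM in wild type against 7.61, 5.47 and 7.43 CPM in Hox-/- (log2 change -0.06, approximate 95% interval -0.35 to 0.23).

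Notochord and neural markers, whose tissues also use Mnx1, are given beside it. The summed level of 8 notochord and node genes in wild-type and Hox-/- Activin gastruloids was 1950 ± 34.4 and 2179 ± 24.4 CPM at 96 h and 469 ± 4.09 and 177 ± 5.27 CPM at 120 h. Of the 8, 6 were called lower and 1 higher in Hox-/- at 96 h, while at 120 h 7 were called lower and none higher. Over all genes tested, 16.7% were lower and 22.2% higher at 96 h, and 25.5% and 24.9% at 120 h. Noto, the notochord homeobox gene, averaged 18.4 ± 1.91 CPM in wild type against 0.772 ± 0.429 CPM in Hox-/- at 96 h; at 120 h it was 14.5 ± 1.38 CPM in wild type and 0 in both Hox-/- libraries. Of 10 neural and motor neuron genes tested at 120 h, 8 were lower in Hox-/- and 1 higher; their summed level was 137 ± 4.42 CPM in wild type against 43.3 ± 2.05 CPM in Hox-/-. At 96 h it was 61.3 ± 5.04 and 62.7 ± 4.26 CPM. Lhx3, a motor neuron factor, was at the floor in both genotypes at 120 h, the only gene of this list at the floor in wild type. In Hox-/- 3 genes of the list were at the floor, among them Olig2, which averaged 10.1 CPM in wild type. The part of these tissues in the Mnx1 values was not tested.

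Prox1 (ENSMUSG00000010175, chr1:190118035-190170714, minus strand), a homeobox factor of liver, pancreas and lymphatic endothelium, was expressed in every differentiated library. Its levels were 13.6 and 14.8 CPM in wild-type Activin gastruloids at 96 h and 9.16 and 9.90 CPM in Hox-/- (log2 change -0.54, SE 0.11, edgeR adjusted p = 4.04e-05). At 120 h they were 11.5 and 12.3 CPM against 8.10 and 9.73 CPM. That difference did not pass the test (log2 change -0.31, SE 0.15, edgeR adjusted p = 0.0800), though the libraries did not overlap; with library totals alone as the scale it was -0.42 (adjusted p = 0.0154). The genotype effects at 96 h and 120 h differed by 0.23 (approximate 95% interval -0.13 to 0.59, edgeR adjusted p = 0.337).

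In endoderm cultures Prox1 stood the other way, at 8.36, 9.83 and 9.99 CPM in wild type against 12.2, 12.2 and 11.6 CPM in Hox-/- (log2 change 0.36, SE 0.10, edgeR adjusted p = 0.0114). That call was lost without wild-type replicate 1 (adjusted p = 0.0514), with DESeq2 (0.0698) and on FPKM values (0.134). Activin exceeded Chiron at 96 h (log2 change 1.12, SE 0.12, edgeR adjusted p = 1.60e-08) and at 120 h (0.74, SE 0.16, edgeR adjusted p = 8.01e-04), where Chiron had 7.21 and 6.47 CPM. With time it fell by 0.34 in wild-type Activin gastruloids (SE 0.12, edgeR adjusted p = 0.00954), a call lost without replicate 1 at 120 h (adjusted p = 0.0917), without replicate 2 at 96 h and with DESeq2 (0.0928). Lyve1, a lymphatic marker that accompanies Prox1 in lymphatic endothelium, was at the floor in all 10 groups, and the 10 endothelial genes summed to 10.4 to 74.6 CPM in gastruloid groups and were highest in Hox-/- Activin at 120 h.

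Onecut2 (ENSMUSG00000045991, chromosome 18), a liver and pancreas factor, was the only one of the 10 genes tested in mES cells. It did not pass the test between endoderm cultures and mES cells of either genotype (log2 changes -0.31 in wild type and 0.30 in Hox-/-, edgeR adjusted p = 0.267 and 0.245). It had 3.32 and 2.72 CPM in wild-type mES cells and 2.32 and 3.78 CPM in Hox-/- mES cells (log2 change -0.02, approximate 95% interval -0.52 to 0.48, unadjusted p = 0.947 and adjusted p = 0.976 with edgeR). The highest level was in Chiron gastruloids at 120 h, 9.81 and 9.86 CPM, up from 5.79 and 5.17 CPM at 96 h (log2 change 0.75, SE 0.15, edgeR adjusted p = 1.43e-04). Wild-type Activin gastruloids rose from 3.91 and 3.64 CPM to 7.03 and 6.04 CPM (log2 change 0.72, SE 0.19, edgeR adjusted p = 5.95e-04). Hox-/- Activin gastruloids had 3.55 and 3.68 CPM at 96 h and 3.97 and 3.37 CPM at 120 h (log2 change 0.01, approximate 95% interval -0.41 to 0.43).

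At 120 h Onecut2 was lower in Hox-/- than in wild type (log2 change -0.72, SE 0.22, edgeR adjusted p = 0.00432). The call was lost without wild-type replicate 1 (adjusted p = 0.0688), without Hox-/- replicate 2 and with DESeq2 (0.0759). The genotype effects at 96 h and 120 h differed by -0.71 (SE 0.28, edgeR adjusted p = 0.0410), which was lost without 6 of the 8 libraries in turn, with adjusted p up to 0.173. Activin stood below Chiron at 96 h by -0.59 (SE 0.15, edgeR adjusted p = 0.00168) and at 120 h by -0.64 (SE 0.17, edgeR adjusted p = 0.00412), the latter lost without Activin replicate 2 (adjusted p = 0.0604). In endoderm cultures Onecut2 was higher in Hox-/-, 3.75, 4.80 and 3.28 CPM against 2.27, 3.10 and 2.55 CPM (log2 change 0.57, SE 0.20, edgeR adjusted p = 0.0327). That call was lost without any of wild-type replicates 1 and 3 and Hox-/- replicate 2 (adjusted p up to 0.149), and with DESeq2 (0.115).

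Onecut1 (ENSMUSG00000043013, chr9:74861921-74891781, plus strand), a liver and pancreas factor, had 89 counts in all. It was highest in Chiron gastruloids at 120 h (1.26 and 1.17 CPM), above 0.195 and 0.312 CPM at 96 h (log2 change 2.08, SE 0.48). Onecut1 passed the filter on low counts of that fit only with the Chiron libraries at 120 h, where it is high, so no p-value is given. Wild-type Activin gastruloids at 120 h had 0.540 and 1.10 CPM, or 15 counts, and Hox-/- 0.172 and 0.0935 CPM, or 3 counts. Onecut1 was not tested there, and the ratio of pooled counts was 6.07 (95% exact interval 1.72 to 32.7).

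Pdx1 (ENSMUSG00000029644, chr5:147269959-147275848, plus strand), the pancreas and duodenum factor, had 44 counts in all and was in no test. Its highest group was wild-type Activin at 120 h with 0.432 and 0.439 CPM, 4 counts in each library. Hox-/- Activin at 120 h had 1 count in all, a ratio of pooled counts of 9.71 (95% exact interval 1.30 to 431). Antisense or overlapping genes lie on the opposite strand of Pdx1 (Plut), Nkx2-1 (Gm26973), Pax8 (Gm13415), Pax9 (Slc25a21 and Gm15524) and Prox1 (Prox1os and Gm28172). Each had at most 0.742 CPM in any library. The library kit keeps strand, but the counting tool and its strand setting are not given in the sources used here.

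Read over the 10 genes, the calls in Hox-/- Activin gastruloids were all lower, and those in endoderm cultures went both ways. A gene can enter the test through the group where it is high, so the counts that follow are descriptions. In endoderm cultures 4 genes were tested, with 2 called higher (Prox1, Onecut2), 1 lower (Pax9) and Mnx1 not called, where 46.2% of all 14975 genes tested were called, 23.1% higher and 23.1% lower. In Activin gastruloids at 96 h, 2 of 6 tested genes were lower (Mnx1, Prox1), where 38.9% of 16831 genes were called in either direction and 16.7% lower. At 120 h 4 of 6 were lower (Nkx2-3, Pax9, Barx1, Onecut2), where 50.4% were called, 24.9% higher and 25.5% lower. The calls over all genes were 4196 higher and 4294 lower at 120 h, or 2955 and 5596 with library totals alone, which moved the median change of all genes by -0.11. At 96 h they were 3729 and 2817, or 2752 and 3716 with library totals alone. The difference between the genotype effects at the 2 times was called for 3 of 6 (Mnx1, Barx1, Onecut2), where 38.9% of all genes were, 18.7% upward and 20.2% downward. In mES cells the background was 23.2% and the only gene tested was not called.

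**Figure D2:**
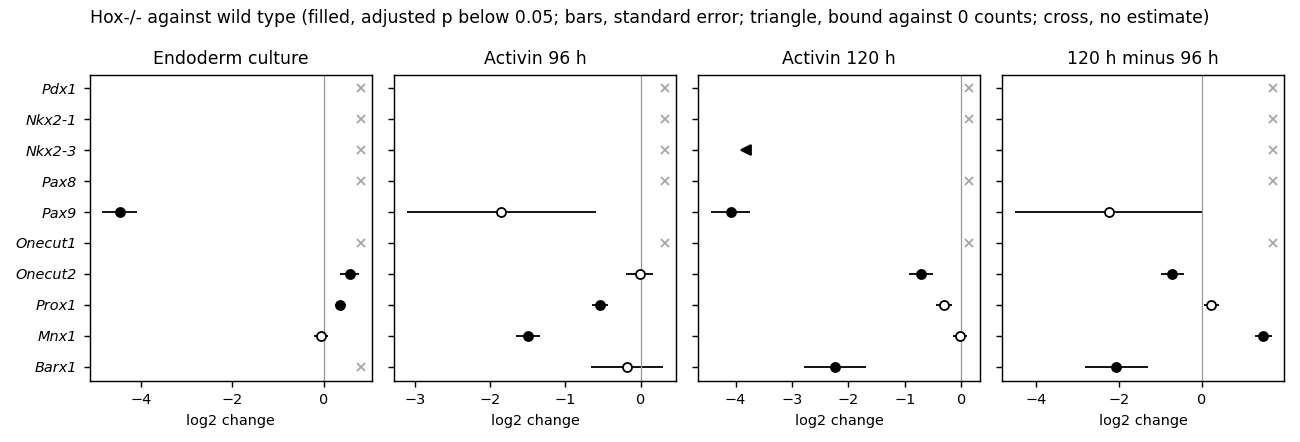
Log2 change in Hox-/- against wild type (x axis) for each gene (rows) in endoderm cultures and in Activin gastruloids at 96 h and 120 h, and the difference between the 2 times; bars are the standard error and filled points passed an adjusted p of 0.05. Pax9 lies at -4.47 in endoderm cultures and -4.09 at 120 h, Mnx1 moves from -1.50 to -0.02, and the triangle for Nkx2-3 is the bound of 14.2-fold.

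Treatment and time separated the genes further, but the counts of calls below are descriptions. In the fit with Chiron, Nkx2-3 and Pax8 entered only through wild-type Activin at 120 h, and Onecut1 only with Chiron at 120 h. In the Activin fit, Nkx2-3, Pax9 and Barx1 entered only through wild-type Activin at 120 h. Calls of these genes that use the group of entry give no support. Between Activin and Chiron, 3 of 8 tested genes were called at 96 h (Prox1 higher, Mnx1 and Onecut2 lower), where 61.6% of all genes were called, 31.3% higher and 30.2% lower. At 120 h 7 of 8 were called, 5 higher in Activin (Nkx2-3, Pax8, Barx1, Mnx1, Prox1) and 2 lower (Pax9, Onecut2), where 41.9% were, 20.3% higher and 21.6% lower. The effect of treatment differed between the times for 4 of 8 genes, all upward at 120 h (Nkx2-3, Pax8, Mnx1, Barx1), where 39.6% of all genes were called and 21.7% upward. From 96 h to 120 h all 6 tested genes were called in wild-type Activin gastruloids, 5 higher and Prox1 lower, where 74.9% of all genes were called, 37.2% higher and 37.8% lower. In Hox-/- Activin gastruloids 2 of 6 were called, both higher (Pax9, Mnx1), against 72.4% of all genes, 34.9% higher and 37.6% lower. In Chiron gastruloids 5 of 8 were called, 3 higher (Pax9, Onecut1, Onecut2) and 2 lower (Mnx1, Barx1), against 61.7% of all genes, 28.5% higher and 33.2% lower. With library totals alone the larger side of the calls over all genes turned in 3 of these comparisons. The calls went from 3513 higher and 3736 lower to 3954 and 2928 for treatment at 120 h, from 4930 and 5739 to 6029 and 4732 over time in Chiron, and from 6253 and 6355 to 6930 and 5728 over time in wild-type Activin gastruloids. These comparisons share the wild-type Activin libraries with the genotype comparisons.

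**Figure D3:**
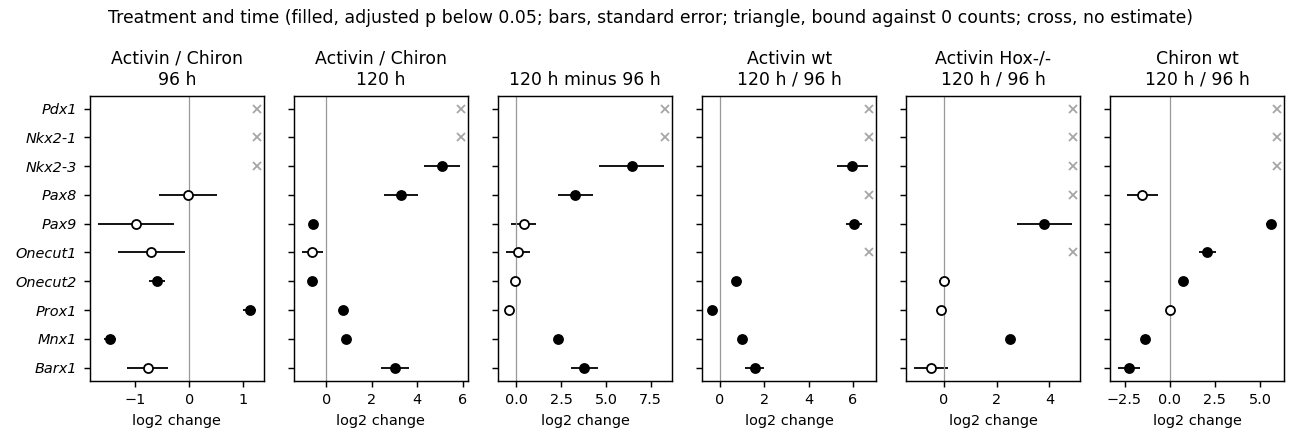
Log2 change (x axis, a scale for each panel) of each gene between Activin and Chiron at 96 h and 120 h, the difference between those, and 120 h against 96 h in the 3 gastruloid series; bars are the standard error and filled points passed an adjusted p of 0.05. Mnx1 changes sign between the treatment panels (-1.47 and 0.88). The change of Barx1 with time is 1.57 in wild-type Activin and -2.24 in Chiron, where Barx1 is at the floor at 120 h.

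Compared with mES cells, Prox1, Mnx1 and Barx1 were higher in endoderm cultures of both genotypes and Pax9 in wild type. Wild-type log2 changes were 4.197 for Prox1 (SE 0.25) and 6.37 for Mnx1 (SE 0.42). Both genes passed the filter on low counts only through the endoderm cultures, where they are high, so no p-value is given for either. Pax9 and Barx1 passed it only through wild-type endoderm cultures, where they too are high. The counts of calls below are therefore descriptions. For Barx1 the counts were 28 against 1 in wild type (ratio 19.0, 95% exact interval 3.14 to 776) and 20 against 1 in Hox-/- (ratio 10.2, 1.63 to 421), the latter losing its call without Hox-/- mES replicate 2 (adjusted p = 0.116) and with DESeq2 (0.0802). Pax9 went from 1 count to 193 in wild type, a ratio of 131 (23.2 to 5194), and its change in Hox-/- was not called (log2 change 1.18, approximate 95% interval -0.93 to 3.30, edgeR adjusted p = 0.317). Leaving out either mES library of a genotype moved the wild-type log2 changes of Pax9 (5.84 to 9.04) and Barx1 (2.89 to 6.29). In Hox-/- it moved the uncalled Pax9 (0.33 to 4.58), Barx1 (2.22 to 5.54), Mnx1 (from 5.67 to 6.29 without replicate 2) and Prox1 (from 4.82 to 5.44 without replicate 1). Without Hox-/- endoderm replicate 2 the Pax9 value was 0.48. Of the 5 tested genes, 4 were called in wild type, all higher, where 79.9% of all genes were (41.6% higher, 38.3% lower). In Hox-/- 3 of the 5 were, all higher, against 80.6% (42.7% higher, 37.9% lower). The mES and endoderm libraries come from separate tables, so culture and library set cannot be told apart. Library totals alone moved the median change of all genes by 0.12 in the wild-type comparison, and by 0.10 in Chiron gastruloids over time.

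Broader lists of gut genes place these values. Some lists share genes, such as Sox17 and Foxa2 in both the shared endoderm and gut epithelium lists, so their counts are not separate. Of 14 shared endoderm transcription factors, 11 of the 12 tested were lower and 0 higher in Hox-/- endoderm cultures, 10 and 0 in Activin gastruloids at 96 h, and 9 and 2 at 120 h. Over all genes tested, 23.1% were lower and 23.1% higher in endoderm cultures, 16.7% and 22.2% at 96 h, and 25.5% and 24.9% at 120 h. Those shares apply to the genotype counts of the lists below as well. Foxa2, a pioneer factor of endoderm, averaged 63.1 CPM in wild type and 1.93 in Hox-/- at 120 h (log2 change -4.92, SE 0.14, edgeR adjusted p = 5.55e-33). Sox17 went from 57.4 to 3.78 CPM (log2 change -3.80, SE 0.13, edgeR adjusted p = 2.02e-29). The median change of the 12 was -2.30, against -0.02 over all genes. Over the 6 tested genes of the 10 it was -1.48. Nkx2-3, Pax9 and Barx1 are among those 6 and entered the fit only through wild-type Activin at 120 h, where they are high. The median of the 6 is therefore a description and gives no support for a shared fall.

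Foregut, liver and pharynx factors other than the 10 were lower for 8 of 14 tested in endoderm cultures and higher for 3, and at 120 h lower for 11 of 16 and higher for 3. Otx2, an anterior homeobox gene, averaged 109 CPM in wild type against 8.10 CPM in Hox-/- at 120 h (log2 change -3.63, SE 0.11, edgeR adjusted p = 1.74e-32). Hhex, a factor of the anterior endoderm and liver bud, went from 37.7 to 5.00 CPM (log2 change -2.79, SE 0.13, edgeR adjusted p = 1.24e-24). Pancreas and duodenum factors were lower for 8 of 11 and higher for 0 at 120 h, against 2 and 0 of 11 at 96 h. In endoderm cultures 2 of 5 were higher and 2 lower, with a median change of -0.03. At 120 h Rfx6 had 8.33 CPM in wild type and 0.0431 in Hox-/-, and Nkx6-1, which is also a neural factor, 15.7 and 0.708 CPM.

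Midgut and hindgut factors went the other way. Of 6 tested, 4 were higher and 2 lower in Hox-/- endoderm cultures, and 5 were higher and 1 lower at 120 h. Cdx1, a caudal homeobox factor of the hindgut and of the tailbud, averaged 142 CPM in Hox-/- and 12.1 CPM in wild type at 120 h (log2 change 3.66, SE 0.09, edgeR adjusted p = 1.00e-35). Cdx4 rose from 3.49 to 18.1 CPM (log2 change 2.48, SE 0.19, edgeR adjusted p = 2.92e-16). Gut epithelium genes were lower for 13 of 13 at 120 h, with a median change of -4.10; Cdh1, the epithelial cadherin, averaged 158 CPM in wild type against 9.79 CPM in Hox-/-. Genes of the visceral endoderm and yolk sac, an extraembryonic tissue that shares many endoderm factors, were lower for 9 of 12 and higher for 1.

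Signals that pattern the gut were divided, with 6 of 16 higher and 8 lower in Hox-/- at 120 h, where 24.9% of all genes tested were higher and 25.5% lower. The hedgehog targets Gli1 and Ptch1 fell, from 254 to 16.03 CPM (log2 change -3.88, SE 0.07, edgeR adjusted p = 2.53e-41) and from 419 to 58.7 CPM (log2 change -2.72, SE 0.05, edgeR adjusted p = 6.46e-41). Sfrp5, a Wnt antagonist of the foregut, fell by 4.62 on the log2 scale. Aldh1a2, which makes retinoic acid, and the posterior signal Wnt3a were higher (log2 changes 1.27 and 1.63). The same lists in Activin against Chiron at 120 h gave 12 of 12 shared endoderm factors and 13 of 13 gut epithelium genes higher. Over all genes tested in that comparison, 20.3% were higher and 21.6% lower. Foregut, liver and pharynx factors were higher for 9 of 16 and lower for 4, pancreas and duodenum factors higher for 7 of 11 and lower for 0, and signals higher for 12 of 16 and lower for 4. Midgut and hindgut factors were lower for 5 of 7 and higher for 0.

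**Figure D4:**
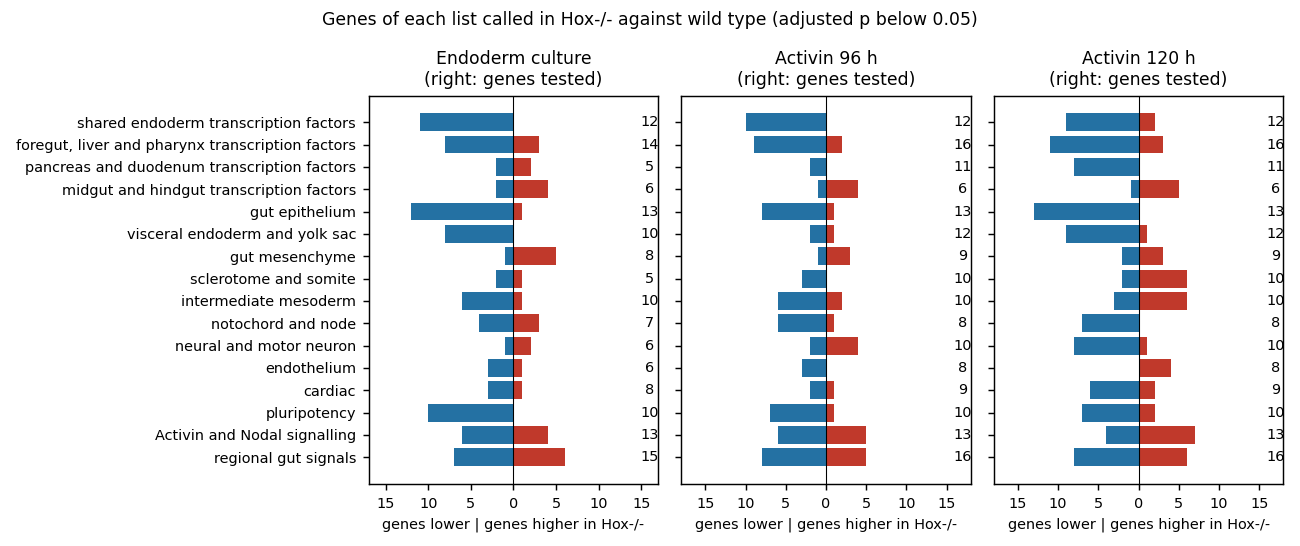
Number of genes of each list called lower (bars to the left) or higher (bars to the right) in Hox-/- against wild type, with the number tested at the right edge, in endoderm cultures and Activin gastruloids at 96 h and 120 h. Gut epithelium reaches 13 lower of 13 at 120 h, and midgut and hindgut factors are mostly higher (5 of 6).

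The genes also fell into patterns over the 10 group means of log2(CPM + 1), given as Pearson r over 10 points that share libraries and depth. Nkx2-3 and Pax8 were alike (r = 0.92), as were Onecut1 and Onecut2 (0.88), Pax8 and Barx1 (0.83), Prox1 and Mnx1 (0.82), and Pax9 and Onecut1 (0.82). Nkx2-3 was at the floor in 9 groups, so its r values rest on wild-type Activin at 120 h alone. Among 13272 genes, those most like Nkx2-3 were Akr1c19 (r = 0.99), Olig2 (0.99) and Dcn (0.98), all highest in wild-type Activin gastruloids at 120 h. Mnx1 was most like Trmt9b (0.99), Cxcr4 (0.99) and Gm16536 (0.98), and Prox1 was like Reep5 (0.99) and Kiz (0.99). Pax9 was nearest to Dtna (0.95), Mrpl14 (0.94) and Coq9 (0.94), which, like Pax9, peaked in Chiron gastruloids at 120 h. The nearest to Pax8 were Six3os1, Klhl4 and Foxd4 (0.94 to 0.95), to Barx1 Adcy8, Rcan2 and Espn (0.93 to 0.94), to Onecut1 Get1, 9130410C08Rik and Ntn5 (0.95 to 0.96), and to Onecut2 Hspb6, Rassf2 and Atg4a (0.92 to 0.93).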

How the data were processed

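Poly-A RNA was made into libraries with a stranded TruSeq kit, per the labels' protocols, and 22 libraries were analysed. The authors deposited raw read counts per gene, and FPKM values (fragments scaled to transcript length and library size) per gene. The submitters' processing notes name cutadapt 1.16, STAR, Cufflinks 2.2.1 and the genome build mm10; the counting tool and its strand setting are not given in the sources used here. The wild-type Activin libraries stand in both gastruloid tables with identical counts and were counted once.

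The main test was edgeR 4.0.16 (R 4.3.3) on the deposited counts: filterByExpr, TMM scaling, 1 coefficient per group, quasi-likelihood test, Benjamini-Hochberg adjustment over all genes tested, called at an adjusted p under 0.05. The standard error is the log2 change over the root of F, and approximate 95% intervals take a normal distribution. CPM is per library total. A group is at the floor where no library exceeds 3 counts. Ratios of pooled counts carry exact (Clopper-Pearson) intervals, which cover counting error only. Named genes were the 10 factors, up to 3 called genes per list, direction and comparison with the smallest p and a log2 change of at least 1, the 3 most alike genes of each factor with a group mean of at least 1 CPM (among genes reaching 5 CPM), and genes overlapping a factor (1 of the alike genes is not reported here); genes quoted only for their level or as markers of another tissue (Pax1, Hand2, Lhx3, Lyve1, Nkx3-2) were chosen after values were seen, as were the short homeodomain core, the MEIS core and the Hox and Pbx composite. The factors and lists were chosen with earlier results of these data known. The fits were tested on simulated data with a small spread and changes planted only in well-counted genes. That test does not cover the low counts of many of these factors. Alternatives were other size factors, other filters, DESeq2 1.42.0, limma 3.58.1 on log2(FPKM + 1) and on log2(FPKM + 0.1), fits of the compared groups only, a replicate block, and leaving out each library.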

Additional observations from a re-analysis of the deposited data

Results flagged for a closer look

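These results are listed because a test of the difference between 2 effects passed. In Activin gastruloids the genotype effect (Hox-/- against wild type, log2 scale) at 120 h minus that at 96 h was 1.48 for Mnx1, -2.06 for Barx1 and -0.71 for Onecut2. In wild-type gastruloids the treatment effect (Activin against Chiron, log2 scale) at 120 h minus that at 96 h was 6.43 for Nkx2-3 (SE 1.82) and 3.30 for Pax8 (SE 0.97). It was 2.35 for Mnx1 (SE 0.19, edgeR adjusted p = 6.15e-10) and 3.79 for Barx1 (SE 0.74, edgeR adjusted p = 2.42e-04). Nkx2-3 and Pax8 entered the fit only through wild-type Activin at 120 h, so their passed tests restate that and give no support. Barx1 likewise entered the fit of the genotype effects only through that group. The Nkx2-3 value rests on 1 count in wild-type Activin at 96 h, 3 in Chiron at 96 h and 1 in Chiron at 120 h, and it no longer passed without Chiron replicate 1 at 96 h. It ran from 5.51 to 9.35 as libraries were left out. The Pax8 call was lost without wild-type Activin replicate 1 at 120 h (value 2.17, adjusted p = 0.147) and with DESeq2 (0.0637), and the value was 3.93 without replicate 2. Barx1 gave 4.59 without Chiron replicate 1 at 120 h.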

How the results depend on the processing

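Of the recounts of called genes, 146 stayed within 1.5 times the reported count and 25 did not; the cause was not tested except where stated. The count in endoderm cultures fell from 3 to 1 with DESeq2 and on both FPKM scales, and was 1 to 3 as libraries were left out. With at least 10 counts in every library, which tests fewer genes, it was 2 in Hox-/- against wild type at 120 h, 3 in Activin against Chiron at 120 h, 3, 1 and 2 over time (wild-type Activin, Hox-/- Activin, Chiron), 1 for the change of the treatment effect and 0 in both comparisons with mES cells. On log2(FPKM + 0.1) these were 1, 2, 3, 1, 2 and 1. Over time in Hox-/- Activin it was also 1 with only those groups fitted, and 1 to 2 with libraries left out; the change of the genotype effect gave 1 with DESeq2 and 1 to 3 with libraries left out.

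Of the refits of called log2 changes, 509 kept the call, 48 lost it and 0 changed sign. Among uncalled changes 10 became called (Prox1, Pax9, Onecut1 and Onecut2). These included Prox1 for genotype at 120 h without Hox-/- replicate 2. They also included Prox1 for the change of the treatment effect without Chiron replicate 1 at 96 h. Onecut2 in Hox-/- endoderm against mES cells without mES replicate 2 was another. So was Pax9 for the change of the genotype effect on both FPKM scales, where it is a description. Reversals were among uncalled values: Onecut2 in mES cells 0.0028 on log2(FPKM + 1); Mnx1 at 120 h 0.0138 with no filter and 0.0016 with DESeq2; Pax8 in Activin against Chiron at 96 h 0.0327 with library totals, 0.000115 with DESeq2 and 0.0303 on log2(FPKM + 1); Onecut2 over time in Hox-/- Activin -0.0022 with RLE factors, -0.0210 with at least 10 counts, -0.0137 with DESeq2 and -0.0028 on log2(FPKM + 1); Prox1 over time in Chiron -0.0951 and -0.187 on the FPKM scales; and, for the change of the treatment effect, Pax9 -0.334 and -0.195 on the FPKM scales and Onecut1 -0.0794 on log2(FPKM + 1). With each library left out in turn, signs also varied for Onecut2 in mES cells (-0.395 to 0.305), at 96 h (-0.0653 to 0.0381), over time in Hox-/- Activin (-0.114 to 0.128), for the change of the treatment effect (-0.144 to 0.0663) and against Hox-/- mES cells (-0.0348 to 0.683). The same held for Mnx1 in endoderm cultures (-0.143 to 0.0823) and at 120 h (-0.147 to 0.129), Pax8 at 96 h (-0.331 to 0.310), Prox1 over time in Hox-/- Activin (-0.234 to 0.0228) and in Chiron (-0.0939 to 0.192), and the change of the treatment effect for Pax9 (-0.403 to 1.90) and Onecut1 (-0.498 to 0.522).

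The replicate numbers do not pair the libraries: same-numbered libraries' deviations correlated by 0.117 in mES cells, -0.224 to 0.211 in endoderm cultures, -0.0749 to 0.0664 in the Activin table and -0.0356 to 0.0895 in the Activin and Chiron table. With a replicate block the counts of genes called were 3 in endoderm cultures, 2 and 4 in Activin gastruloids at 96 h and 120 h, 3 and 7 for treatment, 6, 2 and 5 over time, 3 and 4 for the changes of effect and 0 in mES cells, the same as without it. No block could be fitted between mES and endoderm cultures, and no FPKM fit was run across their tables. Values with both groups at the floor, or a difference of effects with a group at 0, were not refitted. Where leaving out a library leaves 1 in a group, it is assumed to vary like the others. At the lowest depth 3 counts equal 0.329 CPM, so lower levels could not be compared.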
